A study of Mus musculus with 14 samples.

Results

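The genes described are 10 components of the system that senses nucleic acids in the cytosol and in endosomes, chosen by name: Ddx58, Ifih1, Dhx58, Tlr3, Cgas (listed earlier as Mb21d1), Zbp1, Mavs, Sting1 (earlier Tmem173), Tbk1 and Trex1. Only 6 of them are sensors proper, and Mavs, Sting1, Tbk1 and Trex1 encode an adaptor, a relay, a kinase and a nuclease. All 10 had a probe set of their own on the second of 2 array designs, among 19938 genes. On the first design 9 had one, among 22180 genes, since the probe set for Trex1 there is also assigned to another gene, and all 9 were among the 16635 genes tested.

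Cells detect nucleic acids of viruses, and DNA or RNA of their own that lies in the wrong place, with a small set of sensors and relays. RIG-I (Ddx58) and MDA5 (Ifih1) bind RNA in the cytosol and signal through the mitochondrial adaptor MAVS, cGAS binds cytosolic DNA and makes a messenger that activates STING (Sting1), and TLR3 binds double-stranded RNA in endosomes. These routes meet at kinases such as TBK1, which activate the factors that start type I interferon production, and interferon in turn raises the transcription of several of the sensors.

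Total RNA was measured in 14 tumours of B16-F10, a pigmented melanoma line of C57BL/6 mice, grown under the skin. The labels describe mice that bore a tumour on each flank, implanted on day 0 on the right and on day 2 on the left. The right one received 20 Gy of radiation on day 8, and 9H10, an antibody that blocks the T cell checkpoint CTLA4, was injected at day 5, at day 8 and at day 11. Cells grown out of unirradiated tumours that withstood this therapy or relapsed were Res 499 and Res 177, labelled resistant, and they were implanted again beside control B16-F10 cells, labelled sensitive. The first array design held 7 Res 499 tumours, 1 Res 177 tumour and 4 control tumours, and the second design held 1 Res 177 tumour and 1 control tumour. Each resistant subline is 1 cell line, so tumours of a subline repeat the implantation and not the selection. Whether the profiled tumours had themselves been irradiated or given antibody is not stated, and neither is the number of mice behind a group. The p-values therefore cover only the scatter among these samples, part of which may be technical.

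All levels are log2 expression values, and differences are log2 differences, in which 1 unit is a doubling. The arrays are of whole tumours, so a change in the number of cells that express a gene and a change in its RNA per cell cannot be told apart. The 8 melanocyte markers averaged 12.46 to 12.81 in Res 499 tumours, 12.59 in the Res 177 tumour and 12.55 to 12.62 in control tumours. Leukocyte content, the mean of Ptprc, Cd53, Laptm5, Coro1a and Ikzf1, ran from 6.03 to 7.91 in Res 499 tumours and was 7.19 in the Res 177 tumour, against 6.12 to 6.53 in control tumours. The 13 macrophage and monocyte markers averaged 6.87 to 9.08 in Res 499 tumours, 8.23 in the Res 177 tumour and 6.93 to 7.57 in control tumours. The 6 T cell markers averaged 5.25 to 6.27 in Res 499 tumours against 5.30 to 5.62 in control tumours, and the 6 dendritic cell markers 5.66 to 6.34 against 5.69 to 5.83. The 4 NK cell markers averaged 4.91 to 5.66 in Res 499 tumours against 4.96 to 5.39 in control tumours, the 3 B cell markers 5.17 to 5.39 against 5.05 to 5.27, and the 5 neutrophil markers 5.24 to 5.87 against 5.27 to 5.36. The 5 endothelial markers averaged 7.37 to 8.44 in Res 499 tumours against 7.47 to 7.82 in control tumours. The 6 fibroblast markers averaged 6.37 to 8.64 in Res 499 tumours and 8.03 in the Res 177 tumour, against 6.75 to 7.71 in control tumours. Leukocyte content was used as a covariate below, and the part of the other lists in the results was not tested.

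Promoter sequence is shown because interferon-regulated genes are known for GAAA repeats, bound by the interferon-activated factor ISGF3 and by interferon regulatory factors. Sequences of 250 bases before to 50 bases from the start of transcription on were read from RefSeq (GRCm38.p6) for 7 of the 10 genes. Those of Dhx58, Zbp1 and Sting1 were not analysed here. The stretches below are written 5′ to 3′ on the strand of the gene, with matches to the long motif (GAAA, any 2 bases, GAAA) or to its shorter core AANNGAAA, on either strand and overlapping ones joined, in capitals. Ddx58 (chr4:40239796-40239925, minus strand) is shown from base -100 to base 30, and Ifih1 (chr2:62646206-62646235, minus strand) from base 21 to base 50. Tlr3 (chr8:45410381-45410480, minus strand), Tbk1 (chr10:121586795-121586894, minus strand) and Mavs (chr2:131233963-131234062, plus strand) are shown from base -100 to base -1.
Ddx58: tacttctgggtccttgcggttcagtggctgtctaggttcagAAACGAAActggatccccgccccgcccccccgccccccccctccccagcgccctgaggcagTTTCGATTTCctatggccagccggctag
Ifih1: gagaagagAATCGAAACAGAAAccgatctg
Tlr3: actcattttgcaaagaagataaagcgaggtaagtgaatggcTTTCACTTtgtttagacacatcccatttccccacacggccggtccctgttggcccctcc
Tbk1: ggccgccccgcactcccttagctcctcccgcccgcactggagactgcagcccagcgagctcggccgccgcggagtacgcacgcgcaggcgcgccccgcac
Mavs: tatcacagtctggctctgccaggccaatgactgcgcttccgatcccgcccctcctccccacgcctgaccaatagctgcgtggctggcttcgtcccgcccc

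The long motif was present in the windows of Ddx58 and Ifih1, starting 3 and 33 bases into the transcript, and in 3.44% of all 32851 promoter windows. Every match to it also holds the core, which was chosen after these windows had been read. The core occurred in 23.9% of all windows, and among the 7 genes in those of Ddx58, Ifih1 and Tlr3, starting at base -59 in Ddx58 and Tlr3. Neither form was found in the windows of Mavs, Cgas, Tbk1 or Trex1. A match describes the letters and is not a site shown to be bound.

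Among the RNA sensors of the cytosol, all 3 members of the RIG-I-like family lay higher on average in Res 499 than in control tumours, with a wide spread among Res 499 tumours. Over all genes tested, 0 of the 9 genes passed the threshold of limma's test (adjusted p of 0.05), where 0.144% of genes passed as higher and 0.21% as lower. At an unadjusted p under 0.05 there were 5 of the 9, all higher in Res 499 (Ddx58, Ifih1, Dhx58, Zbp1 and Tbk1), where 6.68% of genes tested were that and higher. The median difference over the 9 genes was 0.20, beside 0.0053 over all genes tested.

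Dhx58, which encodes LGP2, a relative of RIG-I and MDA5 that binds RNA but lacks the signalling domains and tunes the other RIG-I-like receptors, had the smallest p of the 9. It ranged from 7.25 to 8.36 with a median of 8.12 in Res 499 tumours, was 7.80 in the Res 177 tumour, and was 6.93, 6.91, 7.04 and 7.25 in control tumours. Res 499 replicates 1 to 6 exceeded all 4 controls, and replicate 7 was level with the highest control. Res 499 tumours averaged 7.92 ± 0.45 (SD, n = 7) and control tumours 7.03 ± 0.15 (SD, n = 4), a difference of 0.89 (SE 0.21), or 1.85-fold, with an adjusted p of 0.0843 by limma. Dhx58 passed the threshold without Res 499 replicate 7 (difference 0.998, adjusted p = 0.0485 by limma) and with arrays weighted by quality (0.91, adjusted p = 0.0413 by limma). Replicate 7 was the lowest Res 499 tumour for this gene. At 0.05 Dhx58 passed in no other alternative, and over all 23 its adjusted p by limma ran from 0.0413 to 0.299.

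Ifih1, which encodes the sensor of long double-stranded RNA MDA5, ranged from 7.42 to 9.09 with a median of 8.48 in Res 499 tumours. It was 8.53 in the Res 177 tumour and 7.69, 7.66, 7.41 and 7.57 in control tumours. Res 499 replicates 1 to 4 and 7 lay above every control, and replicates 5 and 6 lay within the control range. Res 499 tumours averaged 8.26 ± 0.68 (SD, n = 7) and control tumours 7.58 ± 0.12 (SD, n = 4), a difference of 0.68 (SE 0.30, adjusted p = 0.370 by limma). The SD among Res 499 tumours was thus 5.46 times that among control tumours.

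Ddx58, which encodes RIG-I, the sensor of RNA with a free 5′ triphosphate end, ranged from 8.95 to 10.03 with a median of 9.61 in Res 499 tumours. It was 9.68 in the Res 177 tumour and 8.91, 8.71, 8.95 and 9.26 in control tumours. Res 499 replicates 1 to 4 lay above every control and the other 3 overlapped them. Res 499 tumours averaged 9.49 ± 0.43 (SD, n = 7) and control tumours 8.96 ± 0.23 (SD, n = 4), a difference of 0.53 (SE 0.21, adjusted p = 0.290 by limma).

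**Figure D1:**
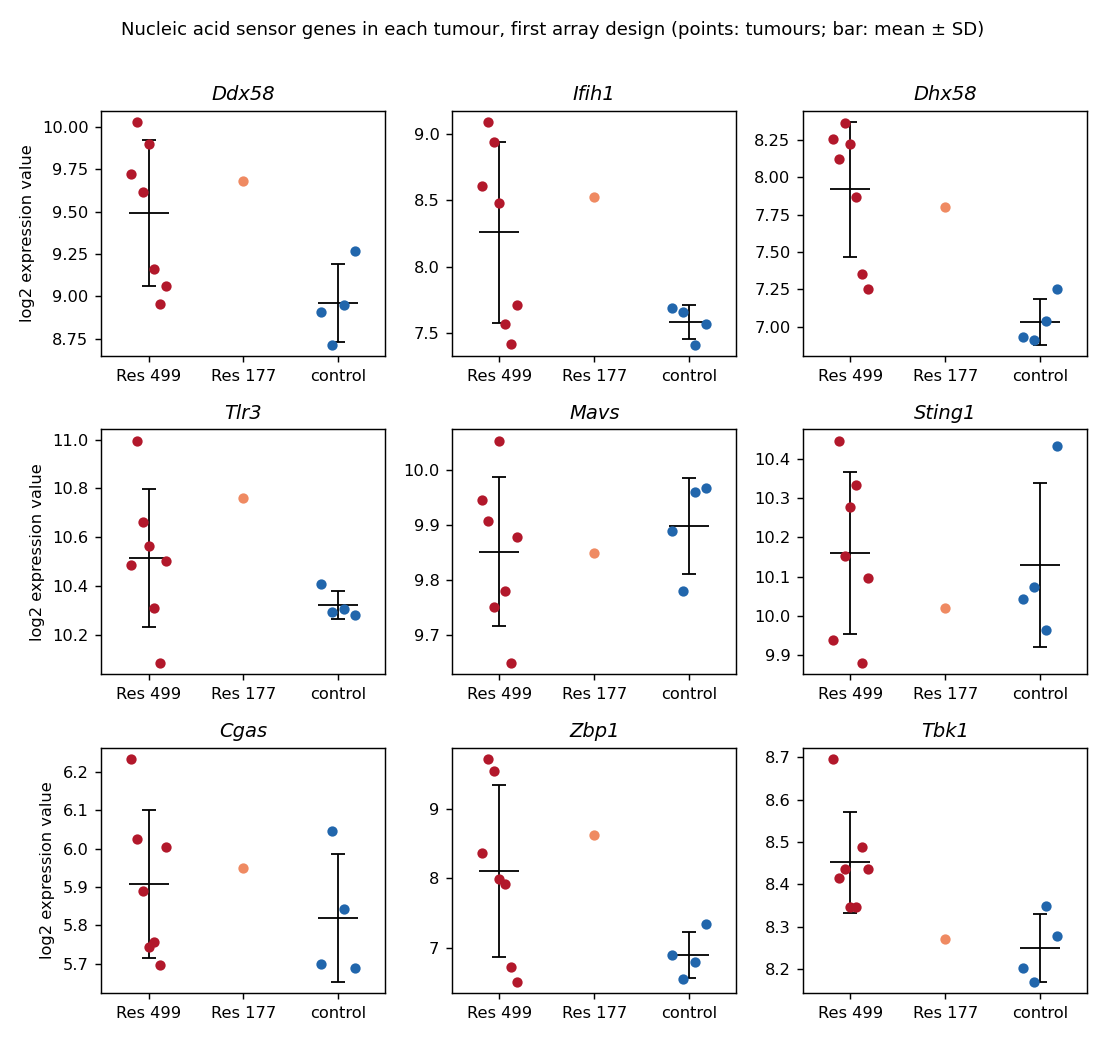
Log2 expression value (vertical axis, own scale for each gene) of 9 genes in 7 Res 499, 1 Res 177 and 4 control tumours of the first array design. Each point is a tumour and bars are mean ± SD. The Res 499 tumours of Dhx58, Ifih1, Ddx58 and Zbp1 spread widely, and the ranges of Res 499 and control tumours overlap for all 9 genes.

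Zbp1 and Tlr3 are the other RNA-binding sensors. Zbp1, which binds nucleic acid in the left-handed Z form and can set off necroptosis, had the widest range of the 9 genes. It ran from 6.52 to 9.71 with a median of 7.99 in Res 499 tumours, was 8.62 in the Res 177 tumour, and was 6.90, 6.56, 6.80 and 7.35 in control tumours. Replicates 1 to 5 lay above every control, replicate 6 lay within the control range and replicate 7 lay just below it. Res 499 tumours averaged 8.11 ± 1.23 (SD, n = 7) and control tumours 6.90 ± 0.33 (SD, n = 4), a difference of 1.21 (SE 0.55, adjusted p = 0.376 by limma).

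Tlr3, the endosomal receptor for double-stranded RNA, ranged from 10.08 to 11.00 with a median of 10.50 in Res 499 tumours. It was 10.76 in the Res 177 tumour and 10.41, 10.30, 10.31 and 10.28 in control tumours. The control tumours lay close together, while Res 499 tumours lay on either side of them, 5 above every control and replicate 6 below. The difference of the means was 0.19 (SE 0.13, adjusted p = 0.594 by limma), with a 95% confidence interval from -0.10 to 0.48, and it was 0.11 without replicate 2.

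For the genes of the DNA route, as for the others on the first design, the ranges of Res 499 and control tumours overlapped. Cgas, which encodes the cytosolic DNA sensor, ranged from 5.70 to 6.23 with a median of 5.89 in Res 499 tumours, was 5.95 in the Res 177 tumour, and was 5.70, 6.05, 5.84 and 5.69 in control tumours. Only Res 499 replicate 1 lay above every control. The difference was 0.09 (SE 0.11, adjusted p = 0.801 by limma), with a 95% confidence interval from -0.15 to 0.32. Cgas averaged 5.88 over the 12 tumours, near the array medians of 5.70 to 5.80. It was among the 50% of genes with the lowest mean, where a difference may not show. Sting1, which encodes the receptor for the messenger that cGAS makes, ranged from 9.88 to 10.45 with a median of 10.15 in Res 499 tumours. It was 10.02 in the Res 177 tumour and 10.04, 10.07, 9.96 and 10.43 in control tumours. Res 499 replicate 2 lay above every control, and replicates 1 and 6 lay below every control. Control replicate 5 lay above all but 1 of the Res 499 tumours. The difference was 0.03 (SE 0.12, adjusted p = 0.943 by limma), with a 95% confidence interval from -0.23 to 0.29, and its sign turned when each array was centred on its median (-0.0033).

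The shared relays gave different pictures. Mavs, the adaptor of RIG-I and MDA5, ranged from 9.65 to 10.05 with a median of 9.88 in Res 499 tumours, was 9.85 in the Res 177 tumour, and was 9.89, 9.78, 9.96 and 9.97 in control tumours. Res 499 tumours lay above, within and below the control range, and the difference was -0.05 (SE 0.08, adjusted p = 0.859 by limma), with a 95% confidence interval from -0.22 to 0.13.

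Tbk1, the kinase that activates IRF3, had a small difference and a narrow spread. It ranged from 8.35 to 8.70 with a median of 8.44 in Res 499 tumours, was 8.27 in the Res 177 tumour, and was 8.20, 8.17, 8.35 and 8.28 in control tumours. Of the 7 Res 499 tumours, 5 exceeded all 4 controls, and replicates 4 and 5 were just under the highest one. Res 499 tumours averaged 8.45 ± 0.12 (SD, n = 7) and control tumours 8.25 ± 0.08 (SD, n = 4), a difference of 0.20 (SE 0.07, adjusted p = 0.263 by limma).

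Read tumour by tumour, Ddx58, Ifih1, Dhx58 and Zbp1 divided the Res 499 tumours in nearly the same way. Replicates 1, 2, 3 and 4 were the 4 highest for each of these genes. Relative to the control mean, replicate 2 stood 1.07 higher for Ddx58, 1.505 for Ifih1, 1.09 for Dhx58 and 2.81 for Zbp1, and 7 of its 9 genes lay above every control. Replicate 6 stood at -0.0068 for Ddx58, -0.165 for Ifih1, 0.32 for Dhx58 and -0.17 for Zbp1, and 2 of its 9 genes (Dhx58 and Tbk1) lay above every control. Tbk1 did not follow that order, since its highest tumours were replicates 1 and 6. For 0 of the 9 genes were the ranges of Res 499 and control tumours fully apart, where 1.23% of genes tested had all Res 499 tumours higher and 1.15% all lower.

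**Figure D2:**
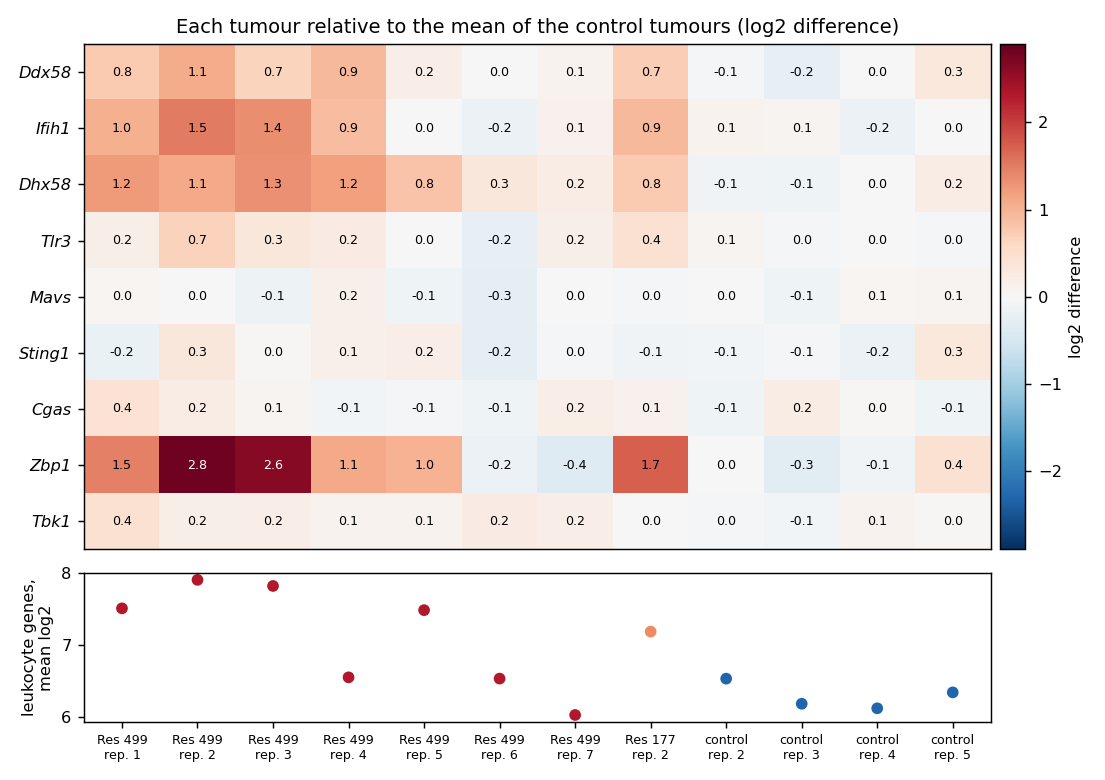
Log2 difference of each tumour (columns) from the mean of the 4 control tumours, for 9 genes (rows), with the mean log2 value of 5 leukocyte genes of the same tumour below. Colour and printed value both give the difference, and Res 499 replicates 1 to 4 and the Res 177 tumour hold the highest values of Ddx58, Ifih1 and Zbp1.

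Res 499 replicates 1 to 3 had a higher leukocyte content than replicates 6 and 7, and higher values of Ddx58, Ifih1, Dhx58 and Zbp1. Leukocyte content was 7.51, 7.91 and 7.83 in Res 499 replicates 1, 2 and 3, and 6.53 and 6.03 in replicates 6 and 7, against 6.12 to 6.53 in control tumours. Replicates 4 and 5 parted the measures. Replicate 4 had a leukocyte content of 6.55, close to the highest control, and macrophage markers at 7.36, within the control range of 6.93 to 7.57, while it stood 0.94 above the control mean for Ddx58, 0.90 for Ifih1, 1.19 for Dhx58 and 1.09 for Zbp1. Replicate 5 had a leukocyte content of 7.49 and stood 0.20 above the control mean for Ddx58, -0.01 for Ifih1, 0.83 for Dhx58 and 1.01 for Zbp1. Leukocyte content of the 7 Res 499 tumours fell into 2 separate clusters, 6.03 to 6.55 and 7.49 to 7.91, so no correlation with it is given.

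With leukocyte content as a covariate the difference between Res 499 and control tumours was -0.01 (SE 0.33) for Zbp1, 0.18 (SE 0.29) for Ifih1 and 0.27 (SE 0.22) for Ddx58, against 1.21, 0.68 and 0.53 without it. Dhx58 stood at 0.52 (SE 0.19), against 0.89 without it, and its 95% confidence interval ran from 0.11 to 0.935. Tbk1 was nearly as large with the covariate, at 0.19 (SE 0.10), as without it, at 0.20. In this fit 0 of the 9 passed the threshold (limma, adjusted p from 0.299 to 0.991), where 0.186% of genes did. At an unadjusted p under 0.05 there was 1 of the 9, Dhx58, where 11.8% of genes had one. Immune cells express these sensors too. Leukocyte content was at most 6.53 in control tumours and reached 7.91 in Res 499 tumours. Where only resistant tumours lie, the fit cannot tell subline and leukocyte content apart. The part of each in the differences was not tested.

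**Figure D3:**
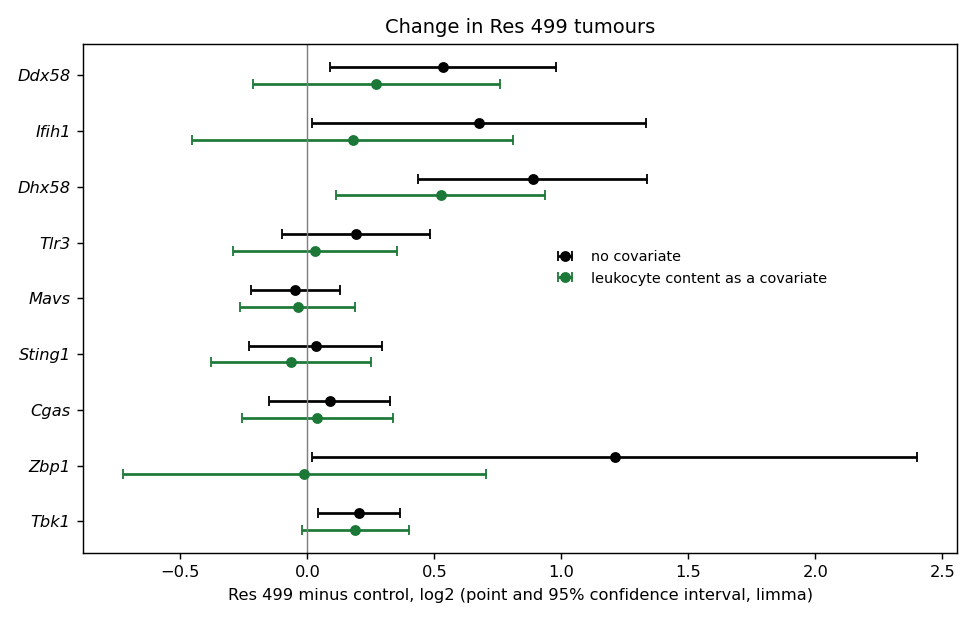
Log2 difference of Res 499 minus control tumours (points) with 95% confidence intervals (bars) from limma, for 9 genes, without a covariate and with leukocyte content as one. Zbp1 moves to about 0 with the covariate, and Tbk1 hardly moves. The intervals are not adjusted for the number of genes, and that of Dhx58 stays above 0 with the covariate (adjusted p = 0.299 by limma).

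**Figure D4:**
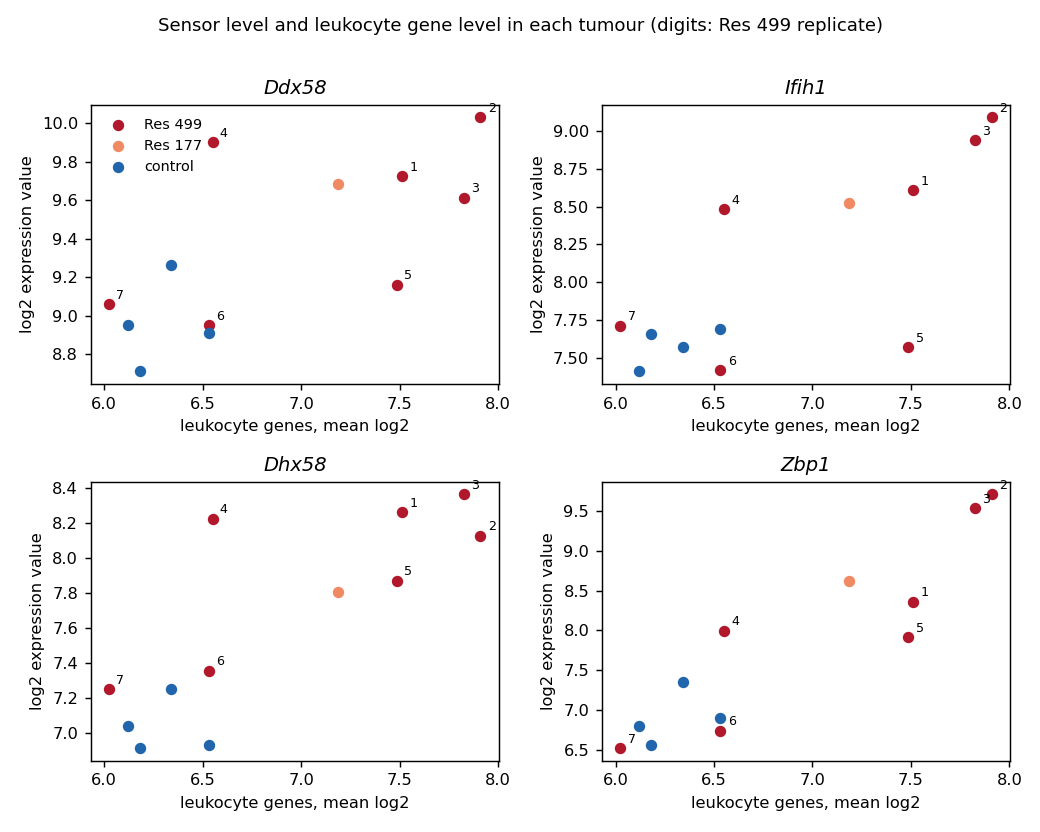
Log2 expression value of Ddx58, Ifih1, Dhx58 and Zbp1 (vertical axis) against the mean log2 value of 5 leukocyte genes (horizontal axis), 1 point per tumour, with digits for the Res 499 replicate. Replicate 4 lies high for each gene at a leukocyte level close to that of the control tumours.

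In the Res 177 tumour of the first design, the same 4 genes and Tlr3 lay above every control. The differences from the control mean were 1.72 for Zbp1, 0.94 for Ifih1, 0.77 for Dhx58, 0.72 for Ddx58 and 0.44 for Tlr3. They were 0.13 for Cgas, 0.02 for Tbk1, -0.05 for Mavs and -0.11 for Sting1. Fitted with leukocyte content, the first 5 were 0.40 for Zbp1, 0.40 for Ifih1, 0.38 for Dhx58, 0.44 for Ddx58 and 0.26 for Tlr3. This tumour thus had 5 of 9 genes above every control, where 22.5% of genes tested had that. None passed the threshold by limma (adjusted p = 0.9998 for each), where 0.21% of genes passed as higher, and at an unadjusted p under 0.05 there were 0 of 9, where 4.08% of genes had one. Zbp1, Ifih1, Dhx58 and Ddx58, 4 of 9, exceeded a difference of 0.5, as did 3.26% of genes. With 1 tumour in this arm, its spread is assumed to be that of the other groups, and the subline and the tumour cannot be told apart. The comparison shares its 4 control tumours with that of Res 499.

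The second design gave a separate Res 177 tumour and a separate control, with no replicate in either arm and hence no test. Zbp1 was 7.78 in the Res 177 tumour against 6.59 in the control tumour, a difference of 1.19. Dhx58 was 8.17 against 7.09, a difference of 1.08, and Ifih1 was 9.35 against 8.42, a difference of 0.93. These 3 genes stood at percentiles 99.4, 99.2 and 98.9 of the differences of all 19938 genes. They were the 3 of 10 above a difference of 0.5, which 3.88% of all genes exceeded, and the 3 of 9 above it on both designs, where 1.78% of 15034 shared genes were.

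The other genes differed less between these 2 tumours. Ddx58 was 10.04 in the Res 177 tumour against 9.68 in the control tumour, a difference of 0.35. Cgas was 7.05 against 6.76, Sting1 11.07 against 10.82, Tlr3 9.52 against 9.42, Tbk1 9.34 against 9.26 and Mavs 10.71 against 10.72. Trex1, the nuclease that clears DNA from the cytosol, was 8.14 in the Res 177 tumour against 8.04 in the control tumour, a difference of 0.10 at percentile 69.5. Sting1 had opposite signs on the 2 designs, at 0.25 here and -0.11 on the first. The Res 177 tumours also stood out for other cell types. Leukocyte content was 7.80 in the Res 177 tumour against 6.74 in the control tumour on the second design. The keratinocyte markers averaged 7.30 against 6.15 there (8 genes), and 7.89 in Res 177 against 5.57 to 5.79 in control tumours on the first design (7 genes). The part of the keratinocyte markers in the differences was not tested, and no covariate can be fitted to the 2 tumours of the second design.

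**Figure D5:**
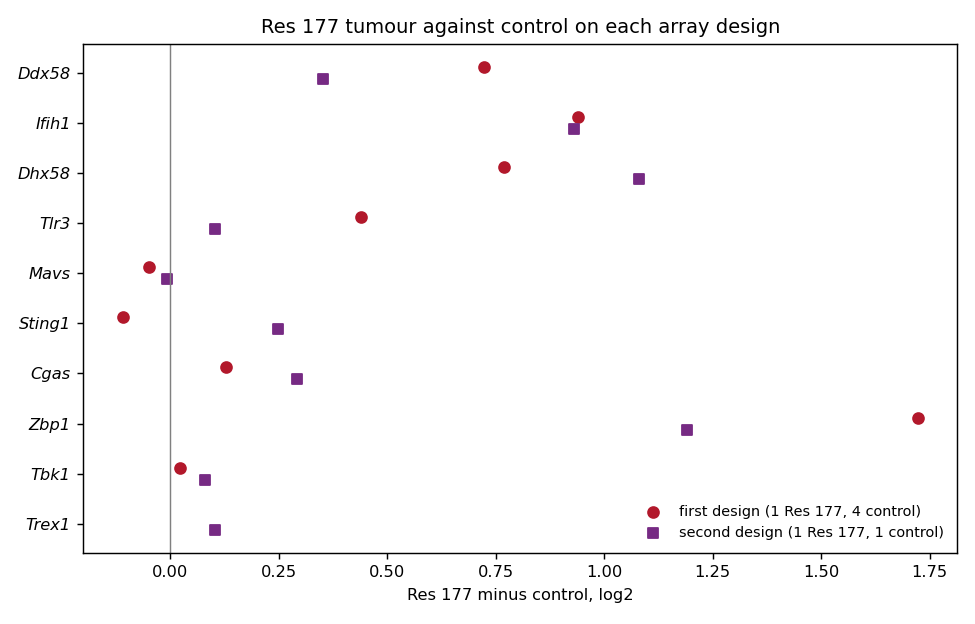
Log2 difference of the Res 177 tumour from control (horizontal axis) for each gene, on the first design (circles, 1 Res 177 against the mean of 4 control tumours) and on the second (squares, 1 against 1). Zbp1, Ifih1 and Dhx58 lie above 0.5 on both designs, and Trex1 was measured on the second only.

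Set against each other within the first design, Res 499 and Res 177 tumours did not differ past the threshold for any of the 9 genes (limma, adjusted p = 1 for each after rounding), where 0.234% of genes passed. At an unadjusted p under 0.05 there were also 0 of 9, where 2.93% of genes had one. The intervals are wide with 1 Res 177 tumour. The difference was -0.51 for Zbp1, with a 95% confidence interval from -2.54 to 1.52, and 0.12 for Dhx58, from -0.65 to 0.88.

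When the sublines were pooled by the response label, as 8 resistant against 4 sensitive tumours, the values were close to those of Res 499, which gave 7 of the 8. Dhx58 averaged 0.87 higher (SE 0.20, adjusted p = 0.0657 by limma), Zbp1 1.27 (SE 0.52, adjusted p = 0.308), Ifih1 0.71 (SE 0.29, adjusted p = 0.305) and Ddx58 0.56 (SE 0.20, adjusted p = 0.227). Over all genes 0 of 9 passed, where 0.613% of genes tested passed, and 5 of 9 had an unadjusted p under 0.05 and were higher, where 7.11% of genes were. At 0.05 Dhx58 passed by limma only without Res 499 replicate 6 (adjusted p = 0.0486) or replicate 7 (adjusted p = 0.0341), or with arrays weighted by quality (adjusted p = 0.0322). With leukocyte content as a covariate Dhx58 was 0.51 higher (adjusted p = 0.283 by limma), and the differences were 0.03 for Zbp1, 0.20 for Ifih1 and 0.29 for Ddx58.

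Of 18 other nucleic acid sensors tested in Res 499 tumours, 13 were higher than in control tumours, where 51.7% of all genes were, with a median of 0.27, and 0 passed the threshold by limma (smallest adjusted p 0.1765, and 5 with an unadjusted p under 0.05). Counts at an unadjusted p under 0.05, for this list and those below, take either direction. Of all genes tested, 6.68% had such a p and were higher. The share in either direction is not given, so these counts cannot be set against a share of all genes. Differences were largest for Ifi204, a DNA-binding protein of the AIM2-like family, at 1.60 (SE 0.66), and for Oas2, which makes the activator of RNase L, at 1.08 (SE 0.32). Ifi204 has close relatives in its gene family, so its probe set may share signal. The endosomal RNA receptors Tlr13, Tlr8 and Tlr7 stood at 1.02 (SE 0.55), 0.70 (SE 0.55) and 0.57 (SE 0.45), with SDs of 1.22, 1.26 and 1.002 among Res 499 tumours. At the other end were Zc3hav1, an antiviral zinc finger protein that binds CpG-rich RNA, at -0.19 (SE 0.17), and the helicase Dhx36 at -0.12 (SE 0.07). With leukocyte content as a covariate the list's median was -0.05 and 8 of 18 were above 0, with Tlr13, Tlr8 and Tlr7 at -0.31, -0.56 and -0.46 and Oas2 at 0.52. Of all genes tested in that fit, 43.5% lay below -0.0118 and 54.8% below 0.0298.

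Of 19 adaptors, kinases and factors that act below the sensors, 16 were higher in Res 499 tumours, with a median of 0.17, and 0 passed (limma, smallest adjusted p 0.152, and 7 with an unadjusted p under 0.05). Irf7, the factor that amplifies interferon production, was at 7.58 ± 0.56 (SD, n = 7) in Res 499 against 6.75 ± 0.15 (SD, n = 4) in control tumours, a difference of 0.83 (SE 0.25, adjusted p = 0.182 by limma). Trim25, a ubiquitin ligase that acts on RIG-I, followed at 0.52 (SE 0.20). The TBK1-related kinase Ikbke stood at 0.35 (SE 0.10) and Irf3, the factor that TBK1 activates, at 0.27 (SE 0.08). In the fit with the leukocyte covariate, Irf7 was at 0.34, Trim25 at 0.26, Ikbke at 0.31 and Irf3 at 0.23, the list's median was 0.04 and 12 of 19 were above 0. Ticam1, the adaptor of TLR3, was at -0.17 (SE 0.09) and Tbkbp1, a TBK1-binding protein, at -0.14 (SE 0.07).

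Of 14 nucleases and inhibitors, 6 were higher and 8 lower, with a median of -0.03, and 0 passed (limma, smallest adjusted p 0.1765, and 2 with an unadjusted p under 0.05). Usp18, which removes ISG15 and damps interferon signalling, was at 1.25 (SE 0.38) and Nlrc5, an activator of MHC class I genes that also restrains sensor signalling, at 0.53 (SE 0.41). Tnfaip3, a ubiquitin-editing inhibitor of NF-kB signalling, and Skiv2l, a helicase of the cytosolic RNA exosome, were lowest, at -0.22 (SE 0.15) and -0.21 (SE 0.10). The leukocyte covariate placed Usp18 at 0.66, Nlrc5 at -0.28, Tnfaip3 at -0.04 and Skiv2l at -0.17, with a list median of -0.04 and 4 of 14 above 0.

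For the interferon genes that were tested no difference was detectable. Ifnb1, Ifna2 and Ifnk were among the 25% of genes with the lowest mean and were not tested. Ifna5 had no probe set of its own on the first design. Ifna1, Ifna4, Ifnl2 and Ifnl3 have close relatives in their gene families, so their probe sets may share signal. Ifne and Ifng averaged 4.96 and 5.55 in Res 499 tumours, under the array medians of 5.70 to 5.80, where a difference may not show. Of 6 tested, 3 were higher and 3 lower in Res 499 tumours, within -0.11 (Ifna4) and 0.06 (Ifng), and 0 passed (limma, smallest adjusted p 0.7515, and 0 with an unadjusted p under 0.05). Next in each direction were Ifne at -0.06 (SE 0.09) and Ifnl2 at 0.05 (SE 0.12). The mean over the 9 interferon genes on the first design was 6.05 to 6.18 in Res 499 tumours and 6.13 in the Res 177 tumour, against 6.08 to 6.12 in control tumours. The interferon-stimulated effectors lay higher. Of 12 tested, 11 were higher in Res 499 with a median of 0.56, and 0 passed (limma, smallest adjusted p 0.0513, and 5 with an unadjusted p under 0.05). Rtp4, an interferon-induced chaperone, was at 1.40 (SE 0.27) and Oasl2, a relative of the OAS enzymes, at 1.08 (SE 0.53), while Ifit2 and Ifit3 were at 0.01 (SE 0.14) and -0.09 (SE 0.15). With leukocyte content as a covariate the median was 0.01, 6 of 12 were above 0, and Rtp4 stood at 0.94. In the comparison by response label, Rtp4 alone of this list passed, and it was 1.42 higher (adjusted p = 0.0324 by limma) in resistant tumours.

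Between the 2 tumours of the second design, 14 of 20 other sensors, 16 of 20 adaptors, kinases and factors and 11 of 16 nucleases and inhibitors were higher in Res 177 than in control, where 57.5% of all genes were. All 13 interferon-stimulated effectors measured there were higher, with a median of 0.55, and 3 of 8 interferon genes were.

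Genes outside the 10 whose log2 values followed each of them most closely over the 12 tumours of the first design were picked among 16626 tested genes by Pearson's r, which is given as a description, since all genes share the same tumours and group differences. The closest to Zbp1 were Parp9 (0.988), Gm12250 (0.984) and Sp110 (0.978), and the closest to Dhx58 were Irf7 (0.980), Irf9 (0.968) and Sp100 (0.967). Ifih1 was followed by Sp110 (0.954), Stat2 (0.952) and Gbp4 (0.935), and Ddx58 by Phf11d (0.956), Irgm2 (0.950) and Apol9b (0.947). Tlr3 was followed by Gbp4 (0.903), Mndal (0.894) and Apoe (0.886). For the 4 others the closest genes were Acd (0.903) for Mavs, Agk (0.902) for Cgas, Ppp5c (0.914) for Tbk1 and A930007I19Rik (0.839) for Sting1. Gbp4, Gm12250, Irgm2, Apol9b, Mndal, Sp100, Sp110 and Phf11d have close relatives in their gene families, so their probe sets may share signal.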

How the data were processed

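Each probe set has 1 log2 expression value per tumour in the tables the authors deposited, made with RMA (oligo), per the submitters' processing notes. RMA subtracts background, equalises the quantiles of the arrays and condenses probes into a probe set. Versions, genome build and annotation used for it are not given. The log2 scale was read from the deposited values, with array medians of 5.70 to 5.80 on the first design. The 2 designs were normalized apart and never pooled, and no arrays held identical values. There is no read depth, so precision rests on how many tumours there are.

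Names came from the platform annotation, and only probe sets with exactly 1 symbol were used (23521 of 41345 on the first design, 21789 of 35556 on the second). The probe set with the highest mean stood for a gene, and the 25% of genes with the lowest mean (5545) were left out. Groups came from the subline label, and replicate numbers only name a tumour. limma 3.58.1 (R 4.3.3; lmFit, eBayes) was fitted once with 3 groups and once with 2 response levels, and p-values were adjusted by Benjamini-Hochberg over all 16635 genes. The code was tested on simulated data. The genes, lists, tests and alternatives were chosen with earlier results of these data known. All 10 genes are named, and of each pathway list the called genes and the 2 largest differences each way, with a few further members named after their values were seen. Alternatives covered the filter, probe sets, normalization, prior, array weights, each array left out, leukocyte content as a covariate, the arrays in the fit and the threshold.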

Additional observations from a re-analysis of the deposited data

Results flagged for a closer look

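Tbk1 in Res 499 replicate 1, at 8.70, lay apart from the other 6 Res 499 tumours. Its gap to the next tumour was 0.590 of the range of the group, above Dixon's critical value of 0.568 for 7 samples. Among the 18 sets of tumours tested (9 genes in Res 499 and in control) it was the only one, and chance flags about 5% of such sets. Without this tumour the Tbk1 difference between Res 499 and control was 0.16.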

How the results depend on the processing

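For Res 499 against control, the number of genes called, 59, was 356 with array weights, 229 at a threshold of 0.1 and 31 with leukocyte content as a covariate. It ran from 6 to 196 when 1 tumour was left out: leaving out control replicate 2, 3 or 4 gave 11, 22 or 6, and leaving out Res 499 replicate 1, 2, 3, 4, 6 or 7 gave 24, 196, 14, 18, 23 or 37. The number of the 9 genes called, 0, was 1 with array weights and at a threshold of 0.1, and 0 to 1 with a tumour left out, and this gene was Dhx58. For the response label, the 102 genes called were 330 with array weights, 254 at a threshold of 0.1 and 43 with the covariate, and 9 to 141 with a tumour left out (12, 37 or 9 for control replicate 2, 3 or 4, then 42, 35, 41, 58 or 42 for Res 499 replicate 1, 3, 4, 6 or 7, and 59 for the Res 177 tumour). Of the 9, 1 was called with array weights and at 0.1, and 0 to 1 with a tumour left out, again Dhx58. Genes called in Res 177 against control, 35, were 101 with no filter and 2 with the lowest 50% left out, and in Res 499 against Res 177, 39, were 113 and 2. Some signs turned. Zbp1 in Res 499 had the largest such shift, at -0.012 with the covariate against 1.21 without it. Sting1 was -0.0033 (Res 499) and -0.024 (response label) with arrays centred on their medians and -0.065 and -0.0815 with the covariate, and with a tumour left out it ran from -0.023 to 0.13 and from -0.041 to 0.12. Tbk1 in Res 177 was -0.041 with centred arrays, -0.0015 after quantile normalization, -0.0049 to 0.055 with a tumour left out, and -0.0036 on the second design with centred arrays. Mavs in Res 499 against Res 177 ran from -0.032 to 0.036 with a tumour left out. The other differences of the 9 genes kept their sign in every alternative run. Cgas was not among the genes tested with the lowest 50% left out. The cause of these shifts was not tested. The planned correlations with leukocyte content and their alternatives were not run, because the tumours fell into separate clusters. No paired analysis was possible because the labels carry no replicate numbers.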
